A study of Mus musculus with 3 samples.

Results

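T helper cells given IL-6 with TGFβ were compared with the same kind of cells given IL-6 with IL-23. The members of the comparison are 2 of the 3 arrays of the series, chosen because both cultures received IL-6 at 10 ng/ml and differed in the second cytokine, TGFβ at 5 ng/ml or IL-23 at 10 ng/ml. The cells were CD4+CD25- T cells taken from the spleen and lymph nodes of BALB/c mice, all females aged 6 to 8 weeks. Every mouse in the study, controls included, lacked both Stat6, through which IL-4 signals, and the Th1 factor T-bet, which the gene Tbx21 encodes. Antibodies to CD3 (plate-bound, 5 µg/ml) and CD28 (1 µg/ml) stimulated all cultures for 2 days. The remaining culture of the study, with TGFβ at 5 ng/ml and no IL-6, is given beside them as a reference level. The labels do not say how many mice a culture came from, and no culture with IL-6 alone was analysed here. The pair therefore differs in 2 cytokines, and the shares of TGFβ and IL-23 in any difference cannot be told apart.

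Th17 cells are helper T cells that make IL-17 and defend mucosal surfaces. IL-6 acts through the receptor chain gp130 and STAT3 and, with TGFβ, starts this programme in naive cells, while IL-23 acts through a receptor that includes the IL-12 receptor β1 chain and maintains it. TGFβ binds a pair of receptor kinases that phosphorylate Smad proteins, and Smad targets include several brakes on the pathway itself. Th17 cells made with TGFβ and IL-6 are known to make IL-10 and are called non-pathogenic, and those exposed to IL-23 are called pathogenic because they cause tissue inflammation in mouse models.

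Each condition was measured on 1 array, so no test, p-value or error between cultures can be given, and every ratio describes these arrays alone. Levels are normalized intensities in arbitrary units. Unless a sentence says otherwise, 3 levels in a row are those with TGFβ, with IL-6 plus IL-23 and with IL-6 plus TGFβ. Ratios are log2 of the level with IL-6 plus TGFβ over that with IL-6 plus IL-23. The lowest level that was read, called the floor, was 46.0, and a gene at the floor on 1 array has only a bound. The spread of the ratio between probe sets of 1 gene had an SD of 0.33 (3973 genes), the only error available, and it leaves out mice, cultures and arrays. Probe sets of different genes bind with different strength, so levels are compared between arrays and never between genes. RNA came from whole cultures, where fewer cells of a type and less RNA per cell cannot be told apart.

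Of 18193 genes, 9779 were above the floor on at least 1 of the compared arrays and 8816 on both. With IL-6/TGFβ, 388 genes were at least 2-fold higher, which is 3.97% of those measured, and 366 were at least 2-fold lower, which is 3.74%. The other 9025 genes lay within 2-fold, and the median ratio was -0.04. Ratios of 8-fold or more were seen in 27 genes upward and 20 downward. A further probe set could be read for 210 of the higher genes, and in 187 of them every further probe set had the same sign. The same held for 116 of 121 lower genes. In 83 and 44 genes every further probe set was also at least 2-fold apart.

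**Figure D1:**
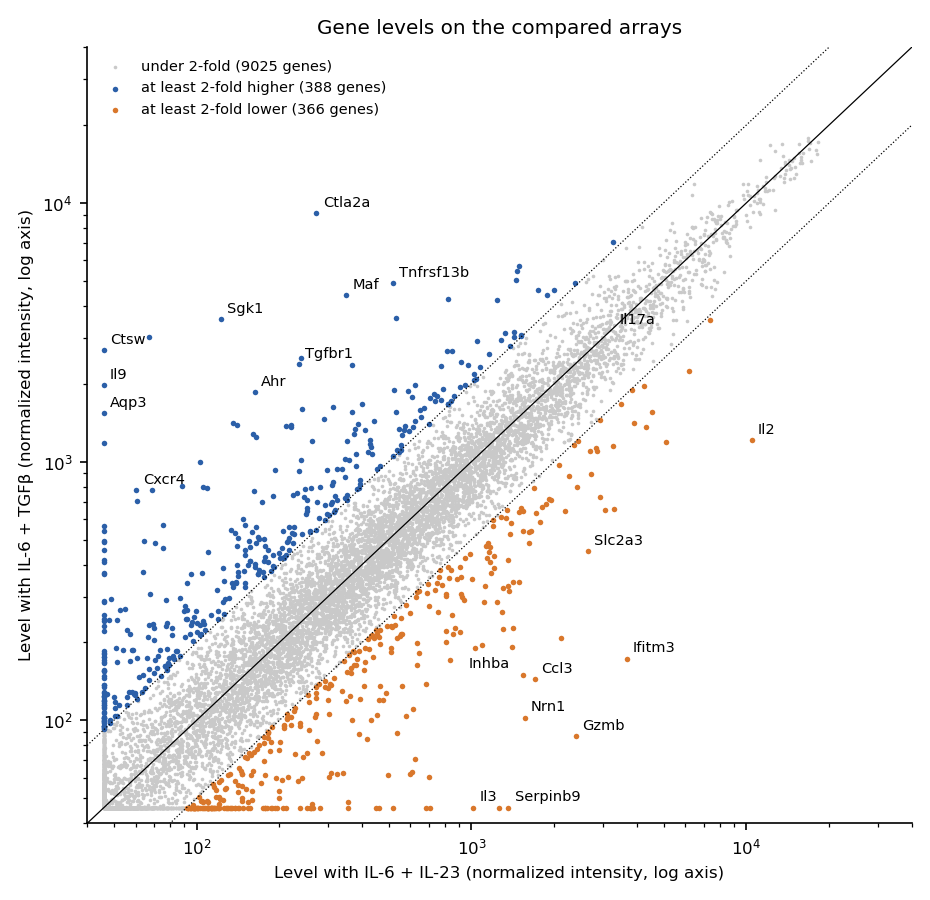
Level of each gene with IL-6 and TGFβ (vertical axis) against IL-6 and IL-23 (horizontal axis), as normalized intensity on log axes, 1 point per gene and 1 array per condition. The solid line marks equal levels and the dotted lines a 2-fold difference; 388 genes lie above the band, 366 below it, and points along the left and lower edges are at the floor of 46.0.

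The cells on both arrays carried the T cell genes of their label. All 10 T cell identity markers that could be matched were above the floor on every array, and none was 2-fold apart, with a median ratio of -0.19. Stat6 read 259, 191 and 223, and Tbx21 read 190, 205 and 118. Which part of either gene was deleted is not given in the sources used here, so these signals do not check the genotype. The median deposited intensity was 17.8 for IL-6/IL-23 against 28.1 for IL-6/TGFβ. Of 7 B cell markers none was above the floor for IL-6/IL-23 and 3 were just above it for IL-6/TGFβ, with a summed level of 167. On the TGFβ array 2 were above it, with a summed level of 279. The ratios of the 3 measured markers, from 0.17 to 0.42 (median 0.23), are therefore lower bounds, and no bound reached 2-fold. The 3 measured markers were among Ms4a1, Cd22, Blk and Cd72, while Cd79a, Cd79b and Pax5 were at the floor on every array. CD8 T cell and NK cell markers above the floor summed to 413 with IL-6 plus IL-23 and 304 with IL-6 plus TGFβ, 4 of 7 genes on either array. Of 10 macrophage and granulocyte markers, 2 were above the floor with TGFβ and 1 on each compared array. Their summed levels were 216, 49.4 and 79.4. The 6 dendritic cell and 3 red blood cell markers were at the floor on all arrays.

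Marker genes of pathogenic and of non-pathogenic Th17 cells lay on opposite sides. Of 7 measured non-pathogenic markers, 6 were at least 2-fold higher with IL-6 plus TGFβ and 0 lower (median ratio 2.62). Of 14 measured pathogenic markers, 0 were higher and 9 were lower, with a median of -1.34 (1 higher and 6 lower without scaling of the arrays). These 14 include Tbx21, whose signal is no measure of T-bet in mice that lacked it. Il17a itself, the cytokine that both kinds of cell make, read 498, 3273 and 3211, so that its level was nearly the same on the compared arrays (-0.03). Both lists were drawn from published Th17 signatures with earlier results of these arrays known, so their direction is not independent evidence.

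Among the non-pathogenic markers, Il9, which encodes a mast cell growth factor, read 1704 with TGFβ and 1976 with IL-6 plus TGFβ. It was at the floor with IL-6 plus IL-23, a difference of at least 43.0-fold. Both arrays with TGFβ were thus high for Il9 and the array without it was low. Maf, a transcription factor that drives Il10, read 1031, 351 and 4388 (3.65, with 5 further probe sets from 0.64 to 3.54). Ahr, the receptor for dioxin and tryptophan products, read 456, 163 and 1861 (3.51). The lymphoid transcription factor Ikzf3 (Aiolos) read 327, 221 and 1359 (2.62), and its further probe set gave 2.07. For Maf, Ahr and Ikzf3 the IL-6/TGFβ array was the highest of the 3 and the IL-6/IL-23 array the lowest. Il10 stood in another order, at 62.8, 240 and 1012 (2.08), with the TGFβ array lowest. Il6st, the gp130 chain, read 234, 164 and 559 (1.77, further probe sets 1.60 to 2.25). The remaining member, the IL-1 antagonist Il1rn, had a ratio of 0.88.

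Among the pathogenic markers, Gzmb, the cytotoxic protease granzyme B, read 221, 2392 and 87.2 (-4.78). Il3, a haematopoietic growth factor, was above the floor on the IL-6/IL-23 array alone, at 1012, which makes it at least 22.0-fold lower with IL-6 plus TGFβ. Csf2, which encodes GM-CSF, the cytokine most tied to Th17 pathogenicity, read 115 and 237 and was at the floor with IL-6 plus TGFβ, at least 5.15-fold lower than with IL-6 plus IL-23. All 3 genes were highest on the IL-6/IL-23 array. The macrophage-attracting chemokines Ccl3 (922, 1698 and 144, ratio -3.56) and Ccl4 (317, 684 and 138, ratio -2.31) had the same order. The inflammatory protease gene Casp1 was read at 153 with IL-6 plus IL-23 and was at the floor on the other arrays, at least 3.33-fold lower. Stat4, which signals for IL-12 and IL-23, read 386, 1171 and 467 (-1.33). Lag3, an inhibitory receptor, read 109, 412 and 168 (-1.29), and Lrmp read 582, 912 and 357 (-1.35). Icos, a costimulatory receptor, read 1445, 2892 and 1448 and lay just inside the 2-fold limit. The other members within it were Tbx21 at -0.80, Ccl5 at -0.36, Lgals3 at 0.03 and Il7r at 0.60.

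**Figure D2:**
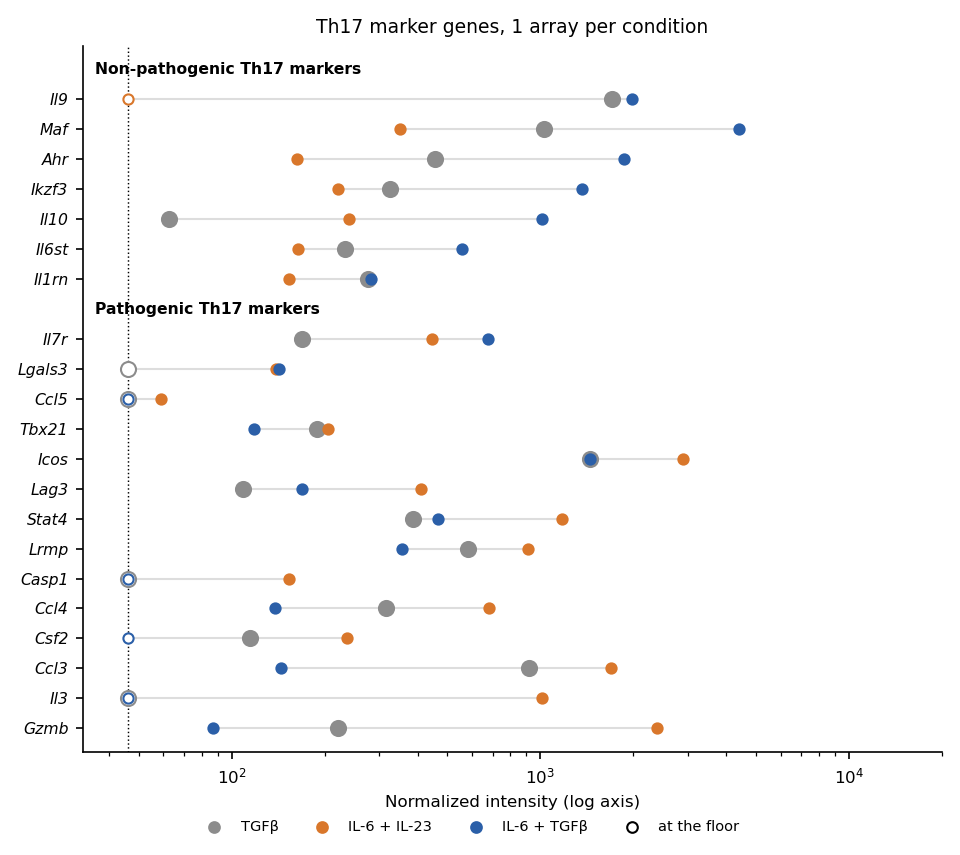
Levels of the measured non-pathogenic and pathogenic Th17 marker genes on the 3 arrays, as normalized intensity on a log axis, 1 point per array; open circles are at the floor (dotted line) and may coincide. The IL-6/TGFβ point lies to the right of the IL-6/IL-23 point in all 7 genes of the upper block. In the lower block it lies to the left in 12 of 14 genes, among them Tbx21, whose product every mouse lacked. Levels cannot be compared between genes.

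The TGFβ pathway was next taken by role, since TGFβ was the cytokine that only the IL-6/TGFβ culture of the pair received. At the ligand level, Tgfb1 was within 2-fold (0.52). Furin, the protease that cleaves the TGFβ precursor, read 990, 786 and 1903 (1.27). Inhba, the activin subunit, went the other way, at 55.1, 1533 and 150 (-3.35), and was highest with IL-6 plus IL-23.

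Of 9 measured receptors of the family, 3 were at least 2-fold higher with IL-6 plus TGFβ and 0 lower, with a median of 0.71. Tgfbr1, the signalling kinase of the TGFβ receptor, read 3297, 235 and 2387 (3.34), and 2 further probe sets gave 1.61 and 1.85. The activin receptor Acvr2a read 119, 51.6 and 245 (2.25), and the BMP receptor Bmpr2 read 678, 138 and 531 (1.95). In all 3 the array without TGFβ was the lowest. Tgfbr2, the ligand-binding chain, read 1588, 835 and 1619 and stayed just within 2-fold (0.96).

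Of 14 measured Smads and brakes of the Smad pathway, 6 were higher and 0 lower (median 0.91). The brakes made up most of them. Ldlrad4, which keeps receptor-bound Smads from being phosphorylated, was at the floor with IL-6 plus IL-23 and read 496 with IL-6 plus TGFβ, at least 10.8-fold higher, although its 2 further probe sets gave 0.13 and 1.60. The Smad co-repressors Skil (2609, 852 and 2667, ratio 1.65) and Ski (746, 325 and 933, ratio 1.52) were higher, as was Pmepa1, which sequesters receptor-bound Smads (2263, 1043 and 2918, ratio 1.48). A further probe set of Ski gave 0.16. Smad7, the inhibitory Smad, read 341, 205 and 462 (1.17, further probe set 2.32). Among the Smads that carry the signal, Smad2 read 787, 566 and 1330 (1.23), Smad3 had a ratio of 0.95, and the shared partner Smad4 one of -0.05.

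Of 12 measured TGFβ target genes of T cells, 7 were higher and 1 was lower (median 1.19); 4 of the 7 are the brakes just named. Foxp3, which defines regulatory T cells, was at 498 on the TGFβ array, at 232 with IL-6 plus TGFβ and at the floor with IL-6 plus IL-23. Gpr83, a receptor of regulatory T cells, read 518, 155 and 495 (1.68). Inhibitors of E proteins lay on both sides. Id1 read 129 and 106 with TGFβ and IL-6/TGFβ and was at the floor with IL-6 plus IL-23, at least 2.31-fold lower there. Id3 read 128, 625 and 71.1 (-3.14), and Id2 was within 2-fold (0.25).

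**Figure D3:**
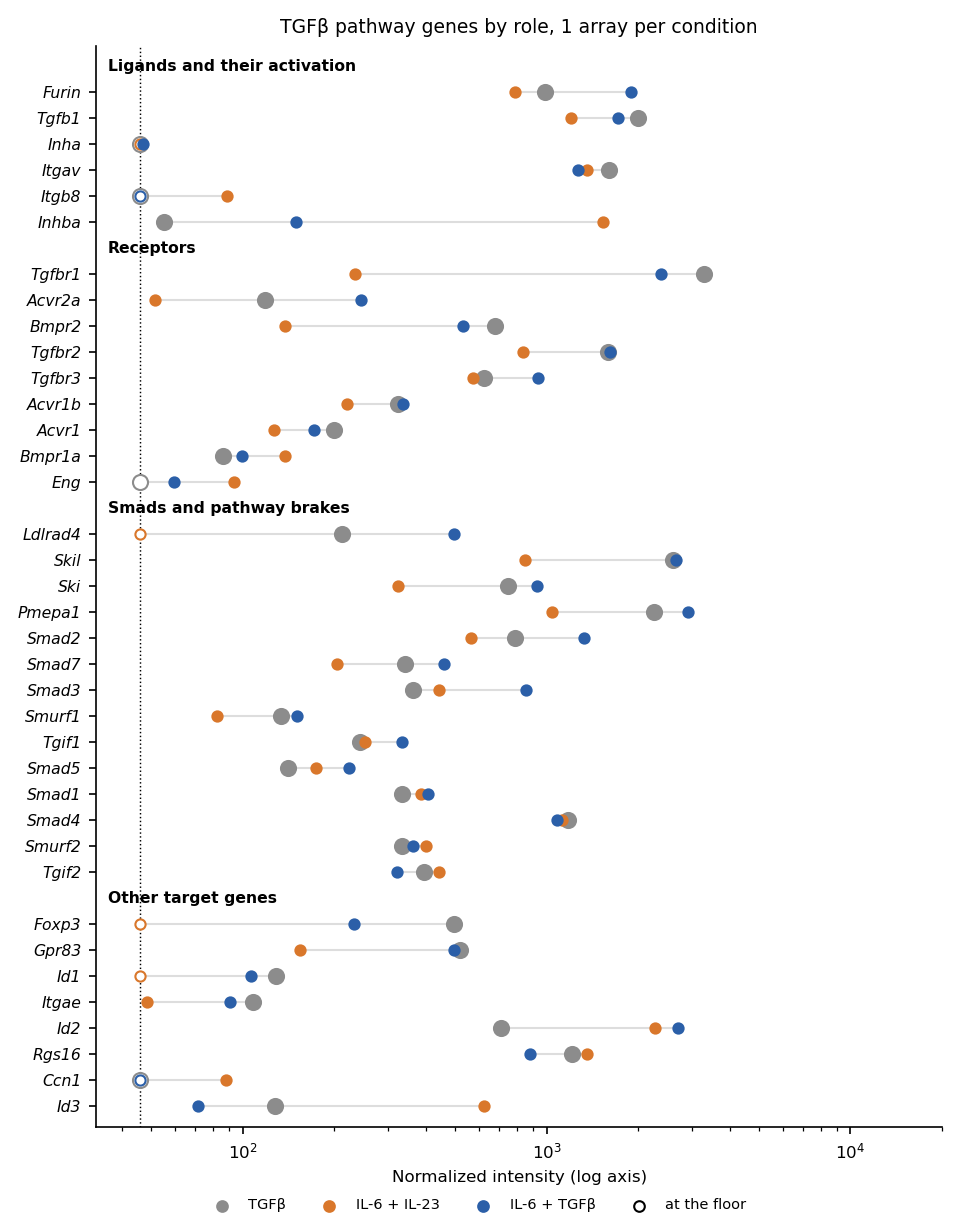
Levels of measured TGFβ pathway genes on the 3 arrays, grouped by role, as normalized intensity on a log axis; open circles are at the floor (dotted line). Among receptors, Smads and brakes the array without TGFβ (orange) is the lowest in Tgfbr1, Acvr2a, Bmpr2, Ldlrad4, Skil, Ski, Pmepa1, Smad2 and Smad7, and Inhba and Id3 show the opposite order.

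Genes of the IL-23 and IL-12 receptors and their signalling gave 0 higher and 5 lower of 15 measured (median -0.55); without scaling of the arrays the median was 0.03 and 0 were lower. Il12rb1, the chain shared by the IL-12 and IL-23 receptors, read 504, 1908 and 718 (-1.41). Il12rb2, the other IL-12 receptor chain, was read with IL-6 plus IL-23 alone, at 101. The IL-1 receptor Il1r1 read 187 and 82.8 in the cultures given IL-6 and was at the floor with TGFβ alone (-1.17). Ebi3, a subunit of IL-27 and IL-35, read 212, 273 and 134 (-1.03). Together with Stat4, these 5 genes were all highest on the IL-6/IL-23 array. Jak2 was at -0.68 and Stat3 at 0.36, both within 2-fold.

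On the IL-6 side, 3 of 15 measured pathway genes were higher and 1 lower (median 0.27); with median scaling 1 was higher and 3 were lower (median 0.04). Besides Il6st, these were the feedback inhibitor Socs3 (426, 1518 and 3092, ratio 1.03) and Il4ra (313, 555 and 1160, ratio 1.06). Further probe sets of Socs3 ranged from 0.49 to 1.38 and that of Il4ra gave 0.09, so neither call held for every probe set. Socs2, another cytokine feedback inhibitor, read 3199, 220 and 1379 (2.65), with further probe sets between 0.31 and 2.47. The remaining SOCS genes were within 2-fold.

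Cytokine genes parted in both directions. Of 24 measured, 5 were higher and 8 lower with IL-6 plus TGFβ, against the 3.97% and 3.74% of all measured genes. Il2, the T cell growth factor, read 726, 10464 and 1208 (-3.11), so that the IL-6/IL-23 array stood far above both arrays with TGFβ. The Th2 cytokines Il13 and Il5 were read only with IL-6 plus IL-23, at 253 and 113, and were at least 5.50-fold and 2.45-fold lower. Ifng, the Th1 cytokine, read 125, 229 and 74.0 (-1.63). Penk, the enkephalin precursor, had another pattern, at 201, 160 and 49.3 (-1.70), lowest with IL-6 plus TGFβ. Upward, Lta, which encodes lymphotoxin α, read 7534, 1487 and 5684 (1.93). Il24, an IL-10 family cytokine, read 95.5, 214 and 493 (1.20), and Il16 read 1135, 559 and 1268 (1.18). Il21, Mif, Tnf and Ltb were within 2-fold, at -0.18, -0.21, -0.44 and 0.57.

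TNF superfamily ligands were mostly on the lower side, with 1 higher and 5 lower of 11 measured (median -0.82). Tnfsf11, which encodes the bone-resorbing cytokine RANKL, read 1634, 596 and 62.1 (-3.26), and its further probe set gave -2.69. Tnfsf8, the CD30 ligand, read 165 and 451 and was at the floor with IL-6 plus TGFβ, at least 9.80-fold lower. Tnfsf4, the OX40 ligand, read 196, 368 and 99.9 (-1.88), Tnfsf9, the 4-1BB ligand, 93.2, 151 and 54.3 (-1.47), and Tnfsf14 was at -1.02. The only higher member was Lta.

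Receptors of the same superfamily gave 4 higher and 5 lower of 18; without scaling of the arrays they gave 7 higher and 1 lower of 15. The lower ones are costimulatory or death receptors of activated T cells. Tnfrsf4 (OX40) read 3546, 6164 and 2245 (-1.46), Tnfrsf18 (GITR) 2872, 2850 and 1096 (-1.38), Tnfrsf9 (4-1BB) 1184, 986 and 439 (-1.17), Fas 418, 307 and 137 (-1.16) and Cd27 330, 434 and 213 (-1.03). In each of these the IL-6/TGFβ array was the lowest of the 3. The higher ones were Tnfrsf13b (TACI), a receptor best known in B cells, at 2367, 517 and 4908 (3.25), Cd40 at 522, 51.2 and 191 (1.90), the TNF receptor Tnfrsf1b at 480, 169 and 503 (1.57) and Tnfrsf12a, at least 3.65-fold higher. In these 4 the culture without TGFβ was the lowest. The measured B cell markers were at the floor with IL-6 plus IL-23, so their ratios of 0.17 to 0.42 are lower bounds. The part of B cells in the levels of Tnfrsf13b and Cd40 was not tested.

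Chemokine genes were lower with IL-6 plus TGFβ in 4 of 9 and higher in 1. Beside Ccl3 and Ccl4, Ccl22 read 98.2 and 258 and was at the floor with IL-6 plus TGFβ, at least 5.60-fold lower, and Ccl1 was at least 2.11-fold lower. Ccl20, the ligand that draws CCR6-bearing cells, read 343 and 415 on the arrays with TGFβ and was at the floor with IL-6 plus IL-23, at least 9.03-fold lower there. Its receptor Ccr6, a surface marker of Th17 cells, was also lowest in the culture without TGFβ (548, 125 and 387, ratio 1.63). Of 10 chemokine receptors, 4 were higher and 1 was lower (median 0.91). Cxcr4, which retains cells in bone marrow, read 93.3, 60.5 and 777 (3.68), and Cxcr5, which leads cells to B cell follicles, read 64.7, 52.7 and 267 (2.34). Both were high on the IL-6/TGFβ array alone. Ccr8, a skin-homing receptor, was read at 868 and 538 in the cultures given TGFβ and was at the floor in the other, at least 11.7-fold lower there. Cxcr3, the receptor of Th1 cells, read 107, 561 and 136 (-2.05).

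**Figure D4:**
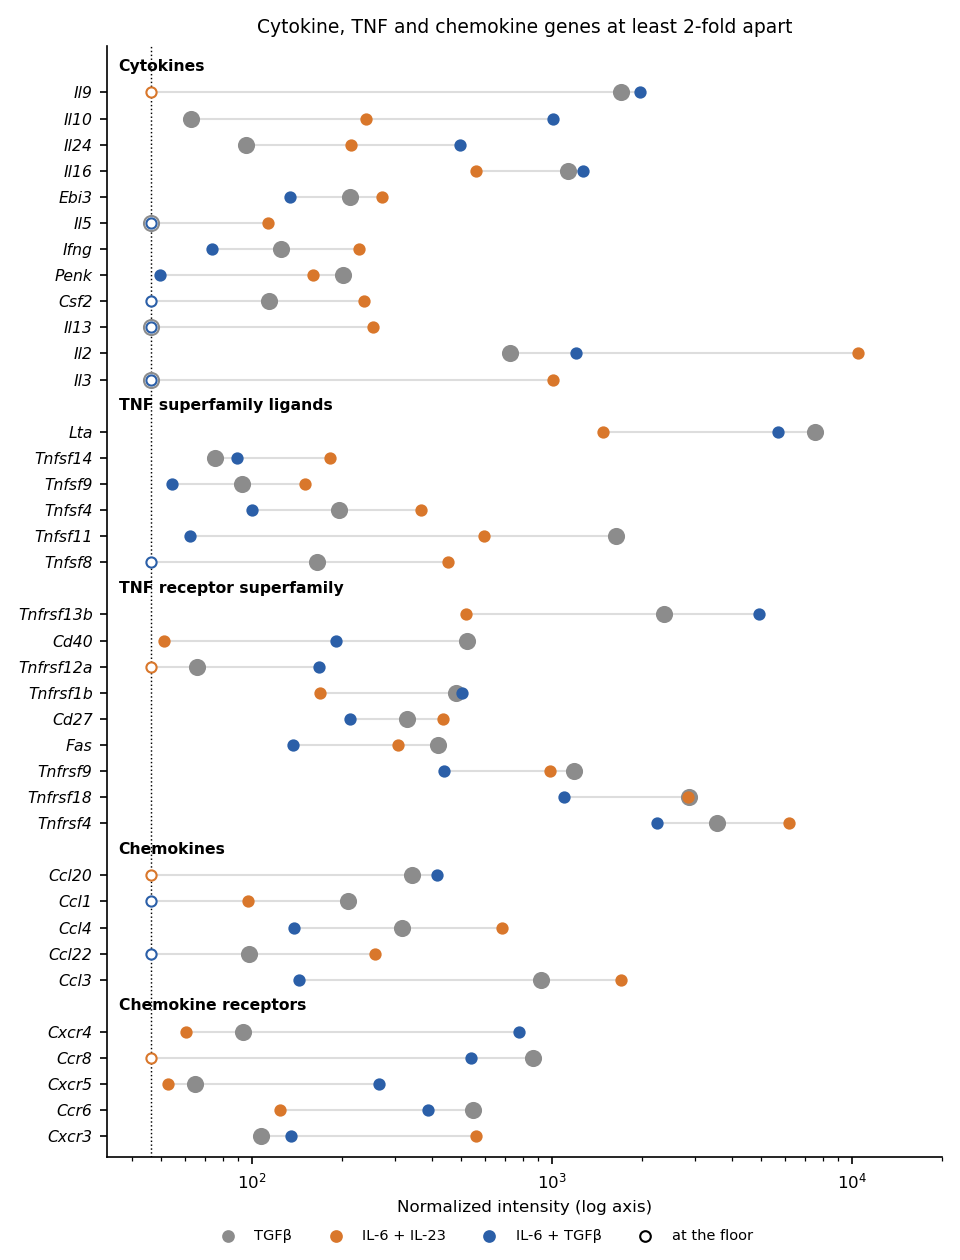
Levels of cytokine, TNF superfamily and chemokine genes that were at least 2-fold apart, as normalized intensity on a log axis, 1 point per array; open circles are at the floor (dotted line). In each block genes run from the highest ratio of the compared arrays (blue to the right of orange) to the lowest (blue to the left).

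Factors that follow T cell receptor stimulation were lower in part. Of 9 measured Nr4a and Egr genes, 0 were higher and 4 lower (median -0.88), of which Nr4a2 read 228, 848 and 254 (-1.74, further probe sets -2.26 to -1.72). Egr1 (-1.02), Nr4a1 (-1.01) and the Egr co-repressor Nab2 (-1.07) were close to the 2-fold limit. With median scaling 6 of 9 Nr4a and Egr genes were lower, and without scaling 1 of 8 was. Of 9 AP-1 factors, Fos (108, 509 and 184, ratio -1.46), Atf3 (138, 416 and 85.0, ratio -2.29) and Batf3 were lower. Jun was higher (464, 245 and 728, ratio 1.57), and its further probe set gave 1.55. Rel, the NF-κB subunit c-Rel, was at 246, 489 and 128 (-1.94), the only 1 of 12 NF-κB genes that was 2-fold apart. With median scaling 4 of the 12 were lower. MAP kinase feedback genes gave 1 higher and 3 lower of 11, with the ERK inhibitors Spry1 (438, 1415 and 342, ratio -2.05) and Dusp6 (505, 1651 and 538, ratio -1.62) lower.

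Inhibitory and costimulatory molecules gave 2 higher and 5 lower of 14. Cd274, which encodes PD-L1, read 594, 579 and 104 (-2.48), and Pdcd1lg2, which encodes PD-L2, read 792, 1004 and 352 (-1.51). Their receptor gene Pdcd1 was within 2-fold (-0.48). Btla, an inhibitory receptor, read 1057, 2943 and 727 (-2.02) and Cd200 read 758, 1781 and 586 (-1.60). Cd96 went the other way, at 1033, 119 and 319 (1.43). Genes that turn ATP into adenosine, an immunosuppressive route, were higher: Nt5e (CD73) read 498 and 456 and Entpd1 (CD39) 214 and 371 on the arrays with TGFβ, and both were at the floor with IL-6 plus IL-23. Those bounds came to at least 9.92-fold and 8.06-fold, and further probe sets gave 1.75 and 0.52. Over the whole list of adenosine and ATP handling, 4 of 10 were higher and 0 lower (median 0.75).

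Of 23 measured interferon-stimulated genes, 4 were lower and 1 higher, with a median of -0.19 (0.38 without scaling). Ifitm3, which blocks the entry of viruses, read 111, 3665 and 173 (-4.40), and its relative Ifitm2 read 644, 2123 and 209 (-3.35). The sensor of viral RNA Ifih1 read 200, 698 and 60.2 (-3.53). Oas3, which makes an activator of RNase L, was read with IL-6 plus IL-23 alone, at 127. All 4 were highest on the IL-6/IL-23 array, while Ifi35 was highest with IL-6 plus TGFβ, at 2801, 1322 and 3143 (1.25, further probe sets 0.16 to 0.37). The guanylate-binding protein genes Gbp7 (457, 1291 and 264, ratio -2.29) and Gbp6 (856, 859 and 216, ratio -1.99) were lower as well, out of 8 measured. None of 7 measured interferon regulatory factors was 2-fold apart, and they ranged from -0.65 to 0.49.

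The promoters of the 5 interferon-stimulated genes that were 2-fold apart are printed because the lower ones share a motif. Each is the 300 bases from 250 before to 50 after the RefSeq start, 5′ to 3′ on the gene's strand, in build GRCm38.p6. Capitals mark GAAANNGAAA on either strand, the core of the interferon-stimulated response element, which interferon-activated STAT and IRF proteins bind.
Ifih1 (chr2:62646206-62646505, minus strand): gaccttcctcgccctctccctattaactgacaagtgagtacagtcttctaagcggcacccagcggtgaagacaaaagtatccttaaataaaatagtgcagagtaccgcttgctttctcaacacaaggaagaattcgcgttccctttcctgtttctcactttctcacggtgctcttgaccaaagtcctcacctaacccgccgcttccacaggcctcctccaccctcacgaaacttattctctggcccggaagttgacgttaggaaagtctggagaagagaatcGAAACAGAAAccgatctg
Oas3 (chr5:120777610-120777909, minus strand): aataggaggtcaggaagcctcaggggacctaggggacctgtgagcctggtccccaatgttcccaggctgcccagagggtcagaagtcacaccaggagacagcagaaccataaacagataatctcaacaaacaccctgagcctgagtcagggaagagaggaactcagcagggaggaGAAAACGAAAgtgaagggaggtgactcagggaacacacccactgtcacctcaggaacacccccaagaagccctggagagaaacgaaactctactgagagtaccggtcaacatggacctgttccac
Ifitm2 (chr7:140955912-140956211, minus strand): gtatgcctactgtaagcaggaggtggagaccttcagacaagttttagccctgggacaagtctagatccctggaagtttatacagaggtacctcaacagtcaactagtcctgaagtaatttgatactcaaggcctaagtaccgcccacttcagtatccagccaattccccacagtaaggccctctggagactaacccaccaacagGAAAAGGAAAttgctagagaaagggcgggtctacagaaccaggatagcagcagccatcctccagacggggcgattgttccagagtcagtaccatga
Ifitm3 (chr7:141010695-141010994, minus strand): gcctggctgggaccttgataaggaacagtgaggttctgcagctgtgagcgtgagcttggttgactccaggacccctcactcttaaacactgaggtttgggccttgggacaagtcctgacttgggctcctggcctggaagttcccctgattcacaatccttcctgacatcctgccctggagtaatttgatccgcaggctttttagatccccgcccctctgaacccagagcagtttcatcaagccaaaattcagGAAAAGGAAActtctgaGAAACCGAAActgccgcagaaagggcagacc
Ifi35 (chr11:101448162-101448461, plus strand): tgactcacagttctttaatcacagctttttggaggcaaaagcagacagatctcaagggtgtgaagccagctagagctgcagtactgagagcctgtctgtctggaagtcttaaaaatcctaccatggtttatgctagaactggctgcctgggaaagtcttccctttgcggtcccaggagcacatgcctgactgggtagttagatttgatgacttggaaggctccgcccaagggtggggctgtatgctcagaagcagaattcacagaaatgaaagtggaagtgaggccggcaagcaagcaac
All 4 lower genes held the motif, Ifitm3 in 2 places, and these letters did not occur in the window of Ifi35. Of 13 listed genes within 2-fold that had a promoter in the table, 7 held it too. The table gave a promoter for 8013 of the 9779 measured genes. Over all 32851 promoters in it, counted singly, the share was 3.44%. Counted by gene, where any promoter of the gene could match, it was 3.47% of those 8013 measured genes. It was 7.41% of 297 lower genes and 3.26% of 307 higher genes. A match describes letters and shows no binding.

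Protease genes and their inhibitors held some of the widest differences. Ctsw, a cathepsin of T and NK cells, was at 1829 with TGFβ and at 2695 with IL-6 plus TGFβ and was at the floor with IL-6 plus IL-23, at least 58.6-fold lower there. Ctla2a, an inhibitor of cysteine proteases, read 2478, 273 and 9114 (5.06), and Ctla2b read 696, 67.3 and 3035 (5.50). Serpinb1a, an inhibitor of neutrophil proteases, was read with IL-6 plus TGFβ alone, at 1185. Its nearest neighbours among the measured genes of the chromosome went the other way. Serpinb9, the inhibitor of granzyme B, read 332 and 1361 and was at the floor with IL-6 plus TGFβ, at least 29.6-fold lower, and Serpinb6b was at least 15.4-fold lower. Cst7, an inhibitor of granule cathepsins, read 139, 1097 and 195 (-2.49).

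Ctla2a and Ctla2b are near-identical paralogs and neighbours among the measured genes of chromosome 13. Their probe sets may bind both transcripts, so the values within the pair are uncertain. Their promoters are shown to let the pair be compared, with the same window and build and with capitals for the AP-1 motif TGANTCA on either strand.
Ctla2a (chr13:60936576-60936875, minus strand): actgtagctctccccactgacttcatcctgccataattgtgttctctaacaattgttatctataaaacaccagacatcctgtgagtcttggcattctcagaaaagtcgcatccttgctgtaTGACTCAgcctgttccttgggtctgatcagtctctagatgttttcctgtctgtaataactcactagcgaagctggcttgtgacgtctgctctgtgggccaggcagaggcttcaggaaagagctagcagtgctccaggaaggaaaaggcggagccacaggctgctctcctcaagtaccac
Ctla2b (chr13:60897398-60897697, minus strand): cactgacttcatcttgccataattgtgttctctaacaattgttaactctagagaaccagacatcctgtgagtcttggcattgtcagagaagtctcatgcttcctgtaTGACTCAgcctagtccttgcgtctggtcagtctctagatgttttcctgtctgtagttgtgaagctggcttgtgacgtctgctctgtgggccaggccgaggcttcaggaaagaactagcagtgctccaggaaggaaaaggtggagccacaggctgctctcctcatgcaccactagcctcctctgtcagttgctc
In a global alignment 256 of 322 columns were identical, or 79.5%. Each window held the motif in 1 place, and 7.81% of all promoters did.

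Beyond these groups, the widest ratios covered transport, signalling and adhesion. Sgk1, a salt-sensing kinase tied to Th17 cells, read 1201, 123 and 3559 (4.86). The water and glycerol channel Aqp3 read 555 and 1542 on the arrays with TGFβ and was at the floor with IL-6 plus IL-23, with 3 probe sets at 4.26 or above. The zinc importer Slc39a8 read 415, 164 and 1248 (2.92), the choline transporter Slc44a1 796, 161 and 1273 (2.98), and the creatine enzyme Gatm 294, 103 and 996 (3.28). In each the culture without TGFβ was the lowest. Membrane and surface genes were Prnp, the prion protein (1110, 239 and 2521, ratio 3.40), Pdpn (219, 136 and 1416, ratio 3.38), Basp1 (192, 141 and 1381, ratio 3.29), Aplp2 (2.76, further probe sets 1.49 to 3.09), Treml2 (2.73), the metalloprotease Adam19 (2.70) and Emp1 (2.68). The rest of the 25 highest were Stard10 (3.55), Kctd14 (3.50), Spsb1 (3.19), Tox2 (2.92), Sbk1 (2.87) and Endod1 (2.78); further probe sets of Kctd14 ranged from 0.79 to 2.13. Further bounds of at least 8-fold were those of the lipid genes Pltp (10.6-fold) and Acsbg1 (8.89-fold) and of Nipal1 (12.2-fold, with a further probe set at 0.78). Crispld2, Olfm2 and the glycan-branching enzyme Gcnt2 followed at 7.98-fold, 6.29-fold and 6.25-fold, and further probe sets of Gcnt2 ranged from 0.52 to 1.30.

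Downward, Nrn1, a surface protein of anergic T cells, read 279, 1561 and 102 (-3.93). Slc2a3, the glucose transporter GLUT3, read 630, 2652 and 452 (-2.55), with further probe sets from -2.79 to -1.30. It was the only 1 of 23 glycolysis and hypoxia genes that was 2-fold apart. Cth, the enzyme that makes cysteine from cystathionine, read 99.8 and 519 and was at the floor with IL-6 plus TGFβ, at least 11.3-fold lower. It stood with Sesn2 (-1.15) among 20 amino acid response genes, of which the other 18 were within 2-fold. The membrane-remodelling gene Snx9 read 185, 607 and 63.2 (-3.27), the myosin Myh10 90.6, 496 and 61.5 (-3.01), the adhesion receptor Crtam 76.1, 354 and 48.5 (-2.87) and the kinase Plk2 233, 534 and 89.6 (-2.58). In these 4 genes the culture with IL-23 was the highest. Plek, a substrate of protein kinase C, read 142, 1303 and 226 (-2.52, further probe sets -2.48 and -2.33). AI504432 (-2.87), Gramd1b (-2.63), Tmem229b (-2.46), Serpinf1 (-2.46), Rab43 (-2.46), Crabp2 (-2.44) and Nkain1 (-2.39) completed the 25 lowest. Further probe sets gave -0.68 and -0.04 for Rab43, neither of them 2-fold apart, and -1.33 and -0.33 for Nkain1.

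Some of the genes read with IL-6 plus IL-23 alone are known chiefly from other tissues. Lum, a matrix proteoglycan of connective tissue, read 1258 there and was at the floor on the other arrays. It was the only 1 of 8 stromal markers above the floor on that array, where Col1a1, Col3a1 and Dcn were at the floor. Tg, the thyroid hormone precursor, read 683 with IL-6 plus IL-23, 50.6 with TGFβ and was at the floor with IL-6 plus TGFβ. Ramp3, a receptor-modifying protein, and the potassium channel Kcna3 were read with IL-6 plus IL-23 alone, at 459 and 266. So were the inflammatory caspase Casp4, at 280, and Lgals7, at 260. Spin4 and Tspan4 were at least 7.70-fold and 5.68-fold lower with IL-6 plus TGFβ and above the floor with TGFβ. The part of stromal cells in the level of Lum was not tested.

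Lineage factors other than Maf, Ahr, Ikzf3 and Foxp3 differed less. Rora, a nuclear receptor that promotes Th17 cells, read 507, 748 and 1800 (1.27, further probe sets 0.43 to 1.48), and Ikzf4 read 426, 157 and 413 (1.40). Gata3, the Th2 factor, read 258 and 120 and was at the floor with IL-6 plus TGFβ, at least 2.61-fold lower than with IL-6 plus IL-23. Of 6 measured genes of the Ahr pathway, the target genes Cyp1b1 and Cyp1a1 exceeded the floor by 3.73-fold and 2.34-fold with IL-6 plus TGFβ and lay at it with IL-6 plus IL-23, while Tiparp (0.51), Ahrr (0.58) and Arnt (-0.72) were within 2-fold. The list of regulatory T cell genes held 8 higher and 3 lower among 18 measured (median 0.85). Of 13 naive and homing genes, 3 were higher and 1 lower (2 and 2 with median scaling, 9 and 0 without scaling). Klf2, which keeps T cells in circulation, read 309, 92.5 and 339 (1.88).

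Housekeeping and growth programmes were close on the compared arrays after quantile normalization, which itself brings the arrays to a common distribution. Of 34 cell cycle genes, 1 was higher and 1 lower, and both are inhibitors of cyclin-dependent kinases. Cdkn1b (p27) read 483, 297 and 630 (1.08), and Cdkn1a (p21) read 1939, 2828 and 1124 (-1.33). None of 24 respiratory chain genes, 14 ribosomal protein genes or 11 antigen processing genes was 2-fold apart. Respiratory chain and ribosomal medians were -0.37 and -0.57 with median scaling and 0.29 and 0.09 without scaling, still with none 2-fold apart. Without scaling 6 of 34 cell cycle genes were higher and 0 lower. Cholesterol synthesis gave 1 lower gene of 19, Lss (-1.08), and fatty acid metabolism 2 lower of 15, Scd1 (225, 118 and 50.4, ratio -1.23) and Fads2. Glycosyltransferases and sulfotransferases that shape surface glycans were divided, with 3 higher and 5 lower of 18. St6gal1 read 877, 1624 and 536 (-1.60), and B4galt1 read 1060, 429 and 1169 (1.45).

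**Figure D5:**
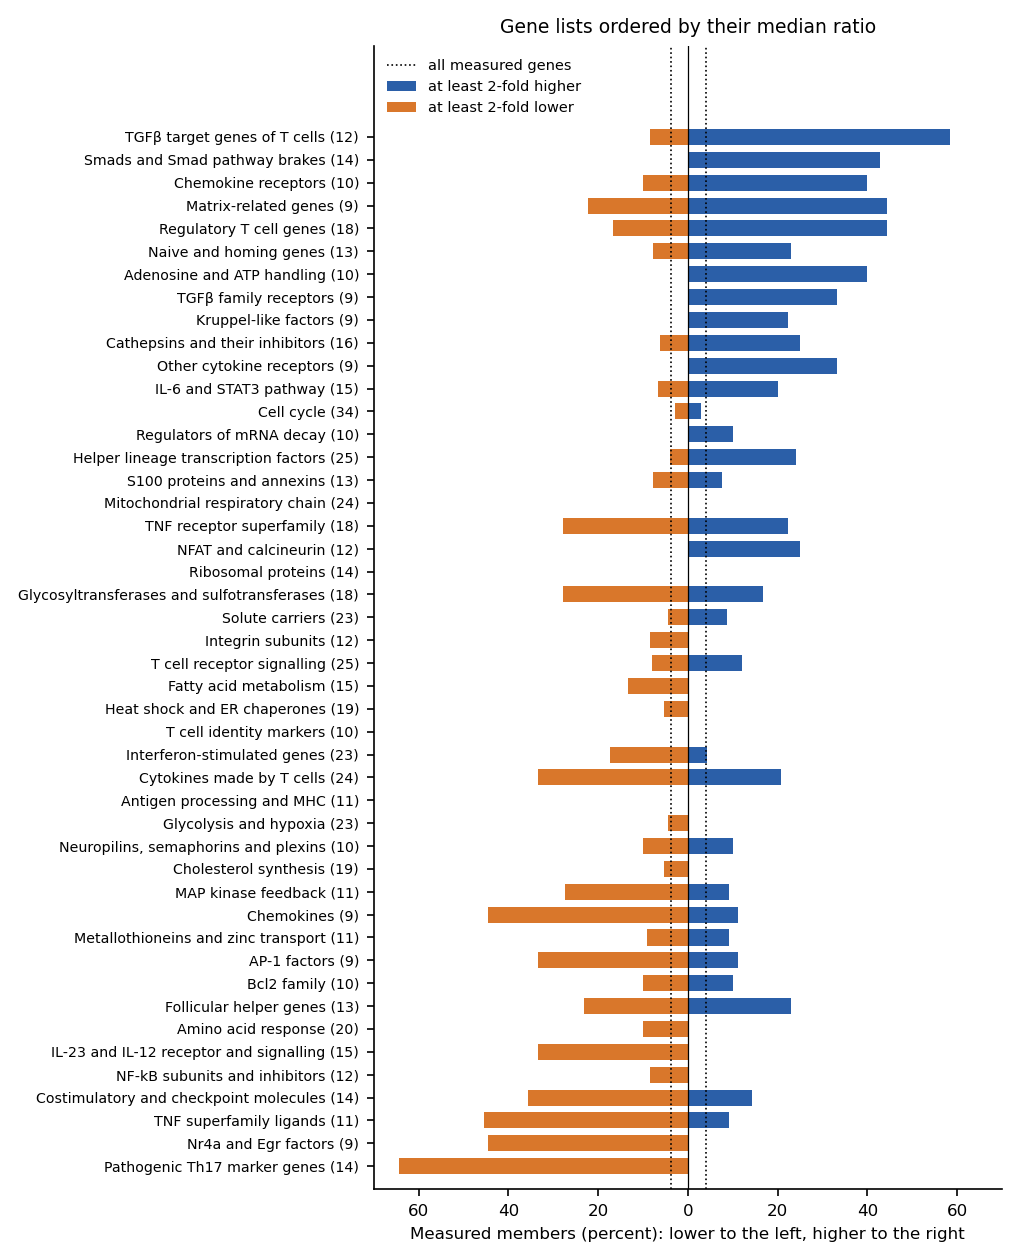
Share of measured members at least 2-fold higher (right) or lower (left) with IL-6 plus TGFβ than with IL-6 plus IL-23, for the 46 gene lists with at least 9 measured members (number in brackets), ordered by median ratio. Dotted lines mark the 3.97% and 3.74% of all measured genes; TGFβ target genes stand at the top with 7 of 12 higher and pathogenic Th17 markers at the bottom with 9 of 14 lower.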

How the data were processed

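RNA of 3 cultures, 1 Affymetrix mouse array each, was labelled as biotin cRNA from 10 µg total RNA, per the labels' protocols. The authors' deposited values are linear intensities of 45101 probe sets; the sources used here give neither the summarization software nor the scaling. Here 64 control probe sets were left out, and log2 intensities of the 3 arrays were quantile-normalized (limma 3.58.1, R 4.3.3), which removes any difference in total mRNA. Probe sets of tissue-restricted genes (101 of 65 genes) set the floor at their 95th percentile, 46.0, and lower values were raised to it. A gene is its brightest probe set with 1 symbol in the platform annotation (34945 probe sets, 18193 genes). The background is the genes above the floor on at least 1 of the compared arrays. With 1 array per condition there was no test, and the number of arrays limits the precision. The calling steps were checked on simulated data, with planted changes wider than the 2-fold limit in genes well above the floor. Its noise was the spread between probe sets alone, and it did not cover changes near 2-fold, bounds or normalization.

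Of 1033 names in 68 gene lists, 959 were matched, and the others were not analysed here. The comparison, the lists and the rule for named genes were chosen with earlier results of these data known. The rule took the 25 highest and 25 lowest ratios (none with an opposed probe set), the 15 largest bounds per direction, Stat6, Tbx21, the IL-10 and IL-17 genes, and from each list the members at least 2-fold apart and up to 4 others. Promoters are from RefSeq (GRCm38.p6). Alternatives changed the scaling, the floor, the choice of probe set and the fold.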

Additional observations from a re-analysis of the deposited data

How the results depend on the processing

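Median scaling gave 303 higher and 507 lower genes, so that 37.4% of calls were higher against 51.5%, and, over genes above the floor on both arrays, moved the median from -0.04 to -0.21. Without scaling it moved to 0.42, and the counts were 1128 higher and 134 lower (89.4% higher), which hold 379 and 134 of the genes counted in the report. A 1.5-fold rule gave 1034 and 1086 genes and a 3-fold rule 133 and 123. The other settings stayed within 1.5 times the main counts, from 301 to 559 higher and 250 to 533 lower. The 80 ranked genes and Il10 kept their 2-fold call under each scaling and floor tried. The 80 were picked for the widest ratios and bounds in these same values. Their calls could hardly change, and they do not check genes near the 2-fold limit. With the median over a gene's probe sets 71 of 77 kept the call. Of 64 list medians, 7 changed sign with median scaling and 24 without scaling, among them those of AP-1, MAP kinase feedback and cell cycle (the last with median scaling only). Genes near the floor have bounds alone, and no replicate was available to leave out. No paired analysis was possible because each condition has 1 array.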

Other observations

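Neighbouring measured genes were looked up in the RefSeq gene order, in 9734 pairs. Genes that were not measured were skipped, so other genes may lie between the members of a pair. Of all measured genes, 3.97% were at least 2-fold higher and 3.74% lower. At least 1 gene was 2-fold apart in 1400 pairs, and both genes were in 97. How many such pairs those shares alone would give was not tested. Of the 97 pairs, 38 were higher together with IL-6/TGFβ, 39 lower together and 20 opposite. These and the following genes were chosen after their values were seen, and genes from 1 locus are not independent of each other.

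Fcmr, the receptor for IgM (1.08), Il24 (1.20) and Il10 (2.08) followed each other among the measured genes and were all higher with IL-6/TGFβ. The run P4ha2 (-1.09), Csf2 (-2.37), Il3 (-4.46) and Acsl6 (-1.55) was lower throughout, as were the neighbours Cd274 and Pdcd1lg2, Tnfrsf4 and Tnfrsf18, Btla and Cd200, and the inflammatory caspases Casp1 and Casp4. Among the measured genes Ahr (3.51) lay beside Tspan13 (1.22), and Foxp3 beside Ppp1r3f (1.41), all higher.

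Class II genes of the major histocompatibility complex were higher in part, although they are genes of antigen-presenting cells. H2-Eb1 read 130 and 146 in the cultures given TGFβ, without and with IL-6, and was at the floor in the other, at least 3.17-fold lower. H2-Ea (at least 2.97-fold) and H2-Aa (at least 2.13-fold) had the same order, and H2-DMa, which loads peptides, read 498, 141 and 473 (1.75). Cd74, the invariant chain, was within 2-fold (0.88), and H2-Ab1 had a ratio of -0.56 with further probe sets at 0.42 and 0.55. Cd86, a ligand of CD28, was read with IL-6/TGFβ alone, at 166. Of 7 B cell markers, 3 were measured, just above the floor with ratios of 0.17 to 0.42, and their part in these levels was not tested.

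Mir155hg, the host transcript of miR-155, read 175, 304 and 106 (-1.52); the mature miRNA was not measured. Of 10092 probe sets without a single gene symbol, 1983 were above the floor on a compared array. Of these, 73 were at least 2-fold higher and 47 lower, and neither share exceeded the 3.97% and 3.74% of all measured genes.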
